A study of Mus musculus with 8 samples.

Results

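De novo lipogenesis in brown adipose tissue (BAT) was examined through 10 genes, which cover the enzymes that make fatty acids from citrate and the proteins that control them. The genes were Fasn, Acaca, Acacb, Acly, Scd1, Scd2, Elovl6, Me1, Thrsp and Mlxipl, and each was taken by its gene symbol from the deposited count table. All 10 were found among its 56953 genes and all 10 passed the filter on low counts. The study compared BAT of mice with cancer-associated cachexia (CAC) with BAT of control mice (CTR), with 4 libraries in each group. All mice were labelled as wild type C57BL/6J, aged 8 to 10 weeks, male or female, and kept at 21 °C. CAC mice had received 3000000 LLC cells, a line from the Lewis lung carcinoma of the mouse, under the skin of the right flank, and CTR mice had received PBS. Per the methods, mice were 8 to 10 weeks old when assigned to injection and were then monitored for 21 days. Only tumour-bearing mice entered the CAC group per the methods, and the sex of the mouse behind each library was not given. The libraries were made by a digital mRNA method from total RNA of the whole tissue.

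Fatty acid synthesis starts in the cytosol, where ATP citrate lyase (Acly) splits citrate into acetyl-CoA and oxaloacetate. Acetyl-CoA carboxylase makes malonyl-CoA, fatty acid synthase (Fasn) builds palmitate from it with NADPH, and Elovl6 and the stearoyl-CoA desaturases (Scd1, Scd2) lengthen and desaturate the product. The pathway is driven in lipogenic tissues by the transcription factors ChREBP (Mlxipl), which responds to glucose metabolites, and SREBP1c (from Srebf1), which responds to insulin, and in BAT it runs beside fatty acid oxidation and refills the lipid droplets.

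The sequence around the transcription start was read for the genes that RefSeq's table (build GRCm38.p6) holds, which gave 10 windows of 300 bases for 8 of the 10 genes. Scd1 and Scd2 were not among them. The windows of Fasn, Thrsp, Elovl6 and Mlxipl are shown because they belong to the main synthase, to its nuclear partner, to the gene with the smallest p between the groups and to the ChREBP gene itself. Each is written 5′ to 3′ on the strand of the gene in lower case, and capitals mark every match, on either strand, to CCAAT (the CCAAT box), CACGTG (an E-box), TCACNCCAC (the sterol response element) or GGGCGG (the GC box).
Fasn (chr11:120824498-120824797, minus strand): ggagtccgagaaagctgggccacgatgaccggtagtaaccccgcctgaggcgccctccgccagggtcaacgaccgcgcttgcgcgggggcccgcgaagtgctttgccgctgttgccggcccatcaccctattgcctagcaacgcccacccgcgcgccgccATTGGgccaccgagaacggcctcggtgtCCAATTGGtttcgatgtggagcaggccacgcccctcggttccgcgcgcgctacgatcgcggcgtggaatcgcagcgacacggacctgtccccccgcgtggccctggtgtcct
Thrsp (chr7:97417501-97417800, minus strand): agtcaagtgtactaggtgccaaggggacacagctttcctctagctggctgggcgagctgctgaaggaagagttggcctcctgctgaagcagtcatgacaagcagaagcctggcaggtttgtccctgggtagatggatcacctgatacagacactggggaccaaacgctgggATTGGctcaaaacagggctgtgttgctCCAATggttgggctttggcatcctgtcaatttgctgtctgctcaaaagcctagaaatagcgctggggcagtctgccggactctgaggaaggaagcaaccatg
Elovl6 (chr3:129532136-129532435, plus strand): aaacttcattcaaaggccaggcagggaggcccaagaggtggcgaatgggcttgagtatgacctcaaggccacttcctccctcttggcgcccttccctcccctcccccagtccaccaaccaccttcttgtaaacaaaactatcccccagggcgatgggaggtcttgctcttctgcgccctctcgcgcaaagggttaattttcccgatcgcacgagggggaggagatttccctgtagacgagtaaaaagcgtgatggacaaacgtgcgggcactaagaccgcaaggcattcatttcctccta
Mlxipl, upstream window (chr5:135089640-135089939, plus strand): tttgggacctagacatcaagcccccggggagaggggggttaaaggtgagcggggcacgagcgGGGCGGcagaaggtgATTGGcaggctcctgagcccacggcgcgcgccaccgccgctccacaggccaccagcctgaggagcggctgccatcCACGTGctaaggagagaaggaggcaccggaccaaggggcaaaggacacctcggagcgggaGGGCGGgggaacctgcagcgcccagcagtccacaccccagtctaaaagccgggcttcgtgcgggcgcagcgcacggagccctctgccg
Mlxipl, downstream window (chr5:135106641-135106940, plus strand): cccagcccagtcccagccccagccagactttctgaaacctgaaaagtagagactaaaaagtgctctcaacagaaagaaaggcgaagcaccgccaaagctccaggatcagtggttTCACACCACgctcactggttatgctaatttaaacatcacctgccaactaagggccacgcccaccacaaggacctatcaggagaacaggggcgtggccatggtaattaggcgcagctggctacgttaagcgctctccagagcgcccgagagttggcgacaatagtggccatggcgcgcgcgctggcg
Of all 32851 promoter windows in the table, 37.4% held CCAAT, 7.2% held CACGTG, 1.2% held TCACNCCAC and 35.7% held GGGCGG. The Fasn window held 3 matches to CCAAT, of which the pair at 62 and 59 bases upstream of the start overlap each other on opposite strands. Thrsp held 2, one on each strand, at 79 and 52 bases upstream. The upstream window of Mlxipl held the only E-box among the 8 genes, 98 bases before the start, as well as 1 match to CCAAT and 2 to GGGCGG. Its downstream window, 17001 bases further along the chromosome, held the only match to TCACNCCAC. Elovl6 held none of the 4 motifs in this window. CCAAT was matched in 6 of the 8 genes and GGGCGG in 3 of them. These matches describe letters in the windows, and no binding was measured.

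Total counts per library ranged from 2454493 to 4827956 in CTR and from 1823167 to 3392538 in CAC, and mitochondrially encoded genes held 28.5% to 33.8% of them. Across the series, 92 of 9876 genes tested (0.932%) had an adjusted p below 0.05 in edgeR's quasi-likelihood test, with 0.739% of the genes tested higher and 0.192% lower in CAC. Single markers below were named after their values were seen, and an unadjusted p below 0.05 in edgeR's test was reached by 12.9% of all genes, 5.93% lower and 7.01% higher in CAC. Brown adipocyte markers were present in every library, with a summed level of 10500 to 12714 CPM (counts relative to the TMM-scaled library total) in CTR and 10580 to 14066 CPM in CAC, and Ucp1 stood at a mean of 3965 and 4059 CPM. By edgeR 1 of the 9 brown markers tested passed the threshold, Ppargc1a, a coactivator of mitochondrial genes, which was higher in CAC (log2 fold change 0.73, adjusted p = 0.0201) but did not pass in 3 of the 8 fits without 1 library (without CTR replicate 1, CTR replicate 2 or CAC replicate 3, adjusted p up to 0.0877). With an unadjusted p below 0.05, Ppara of this list was also higher (log2 fold change 0.50), and Cox8b was lower without overlap of the groups (1024 to 1181 CPM in CTR, 873 to 1006 CPM in CAC, log2 fold change -0.22). The 8 white adipocyte markers summed to 160 to 182 CPM in CTR and 107 to 209 CPM in CAC. Of these, Hoxc10 and Tcf21 were at 0 in all libraries, Retn averaged 103 and 122 CPM, Lep 4.11 and 0.724 CPM, Nnat 35.5 and 12.7 CPM and Sncg 12.3 and 5.43 CPM, and 0 of the 4 tested passed by edgeR, with Sncg at an unadjusted p below 0.05. Summed markers of mature adipocytes overlapped between the groups (10982 to 11941 CPM in CTR, 10496 to 12349 CPM in CAC), and 0 of the 8 passed by edgeR. With an unadjusted p below 0.05, Plin1, which coats the lipid droplet, was lower without overlap (644 to 680 CPM in CTR, 489 to 617 CPM in CAC, log2 fold change -0.27), and Cidec, which acts in droplet fusion, was higher (log2 fold change 0.21). Groups that do not overlap, with CAC lower, as for Cox8b and Plin1, were found for 3.40% of all genes tested.

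The lists of 4 other cell types had higher means in CAC. All 7 macrophage markers had higher means, 2 of the 6 tested passed the threshold, and their sums were 195 to 216 CPM in CTR and 270 to 369 CPM in CAC. All 8 neutrophil markers had higher means, 3 of the 3 tested passed, and their sums were 6.12 to 6.64 CPM in CTR and 163 to 428 CPM in CAC. Most of these sums came from S100a8 (means of 3.57 and 175 CPM) and S100a9 (1.6 and 73.5 CPM). Other cells can also express these genes, and their cell source was not tested. The other gene that passed was Retnlg (1.02 and 10.7 CPM). Without CTR replicate 1, 2 or 4 it did not pass by edgeR (adjusted p up to 0.0738). The defining markers Ly6g, Mpo and Camp were at 0 in all CTR libraries and averaged 0.208, 0.222 and 0.637 CPM in CAC. Ltf averaged 0.0900 CPM in CTR and 1.003 CPM in CAC. These markers rest on no more than 7 counts in any library and were not tested. Ngp, a further granule gene, was at 0 to 0.415 CPM in CTR and 1.62 to 2.64 CPM in CAC, and was not tested. The 5 erythroid markers summed to 6180 to 19266 CPM and 14631 to 44312 CPM, and the 7 muscle markers to 739 to 2008 CPM and 1608 to 3270 CPM, with overlapping sums. Of these lists 0 passed by edgeR, with 4 and 3 at an unadjusted p below 0.05, DESeq2 passed 0 and 1 (Myh4), and limma-voom passed 3 (Hba-a1, Hba-a2, Alas2) and 2 (Myh4, Tnnt3), all higher in CAC. Endothelial and fibroblast markers overlapped between the groups (261 to 341 against 257 to 325 CPM, and 427 to 572 against 376 to 556 CPM). Of the 4 endothelial markers tested, Flt1 passed and was higher in CAC (48.5 to 55.2 against 73.5 to 77.4 CPM, edgeR adjusted p = 0.0166, and up to 0.0570 without CTR replicate 1, CTR replicate 4 or CAC replicate 3). Kdr had a log2 fold change of -0.32 with an unadjusted p below 0.05 in edgeR's test, and -0.20 without CAC replicate 4. By edgeR 0 of the 5 fibroblast markers reached either level. The part of these cells in the lipogenic levels was not tested, and in whole tissue fewer adipocytes and less RNA per adipocyte cannot be told apart.

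Of the 10 lipogenic genes, 8 had a log2 fold change smaller than 0.2 in size between CAC and CTR. None of the 10 passed an adjusted p of 0.05 in edgeR's quasi-likelihood test, in DESeq2 or in limma-voom, against 0.932%, 1.17% and 0.770% of all genes tested. An unadjusted p below 0.05 was reached by 2 of the 10, Elovl6 and Scd2, in each of the 3 tools, and both estimates were lower in CAC. In edgeR's test an unadjusted p below 0.05 was reached by 12.9% of all genes, 5.93% lower and 7.01% higher in CAC. The estimate lay below 0 for 7 of the 10 genes, beside 50.0% of all genes, and the median log2 fold change was -0.05. The 95% interval of the log2 fold change lay inside -0.5 to 0.5 for 8 of the 10. The study describes its samples as mice, and the p-values take each library as a mouse.

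Together the 10 genes held 4.43%, 4.54%, 4.602% and 4.27% of all counts in CTR replicates 1 to 4, and 4.27%, 4.68%, 4.21% and 4.05% in CAC replicates 1 to 4. The groups overlapped, with means of 4.46 ± 0.15% and 4.31 ± 0.27% (SD, n = 4). The summed level was 44855 ± 1631 CPM in CTR and 43648 ± 2279 CPM in CAC, a difference smaller than the SD of either group. Reads of Fasn made up 50.6% to 53.8% of the counts of the 10 genes in CTR and 51.6% to 56.2% in CAC. These shares count reads and are not corrected for transcript length.

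**Figure D1:**
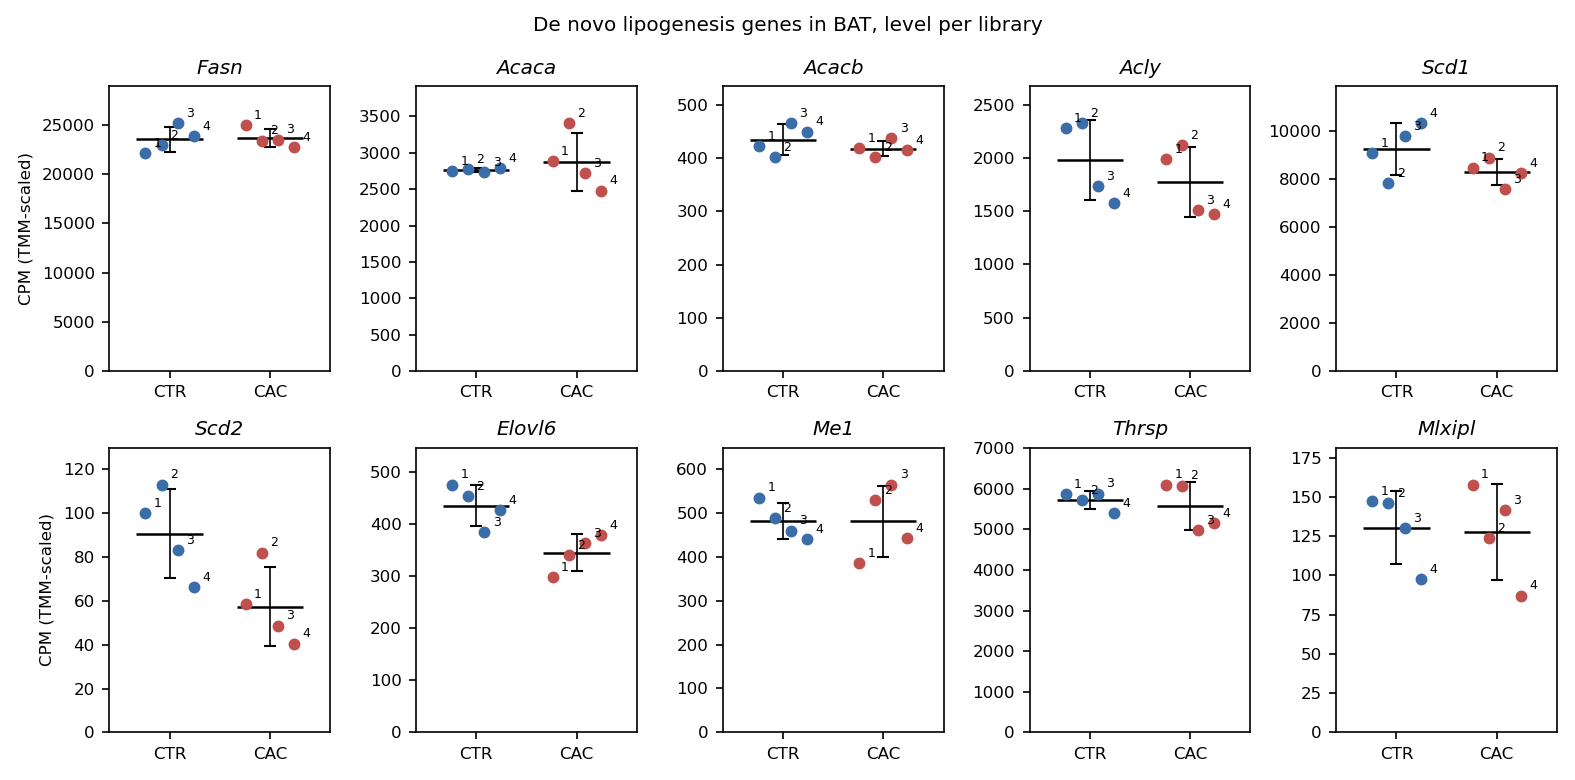
Level of each of the 10 lipogenic genes in CPM (y axis, linear from 0) in the 4 CTR and 4 CAC libraries, each point a library with its replicate number, with the mean as a bar and the SD as a whisker. Elovl6 is the only gene whose groups do not overlap, with 385 to 476 CPM in CTR and 298 to 379 CPM in CAC.

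Acetyl-CoA supply was represented by Acly (chr11:100476353-100528000, minus strand, GRCm38), which was measured at 2277, 2326, 1733 and 1578 CPM in CTR replicates 1 to 4. In CAC it stood at 1991, 2120, 1507 and 1474 CPM. In both groups replicates 1 and 2 lay well above replicates 3 and 4, so the spread within a group was larger than the distance between the groups. The means were 1978 ± 379 CPM in CTR and 1773 ± 331 CPM in CAC (mean ± SD, n = 4), and the log2 fold change was -0.16 (standard error 0.15, 95% interval -0.49 to 0.17, edgeR adjusted p = 0.726). Leaving out single libraries moved it between -0.26, without CAC replicate 2, and -0.073, without CAC replicate 4. Malic enzyme 1 (Me1, chr9:86581371-86695953, minus strand), which supplies cytosolic NADPH, was measured at 535, 488, 459 and 441 CPM in CTR and 385, 530, 564 and 442 CPM in CAC. Both the lowest and the highest library of Me1 were CAC libraries, and the group means, 481 ± 41.0 and 480 ± 81.4 CPM, lay together. The interval of its log2 fold change ran from -0.23 to 0.23.

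The carboxylases share a reaction but not a place. Acaca (chr11:84129672-84401651, plus strand) encodes the cytosolic enzyme whose malonyl-CoA feeds synthesis, and Acacb (chr5:114146535-114250761, plus strand) encodes the enzyme at the outer mitochondrial membrane whose malonyl-CoA restrains fatty acid import. Acaca was even among the CTR libraries, at 2744, 2773, 2732 and 2790 CPM, and spread more widely in CAC, at 2889, 3408, 2718 and 2480 CPM. Every CAC library lay outside the narrow CTR range, 2 above it and 2 below it. The coefficient of variation was 0.96% in CTR and 13.7% in CAC, a difference in spread that was not tested. Its log2 fold change was 0.06 (standard error 0.10, 95% interval -0.14 to 0.26), and without CAC replicate 2 the estimate was -0.03. Acacb was measured at 423, 402, 466 and 450 CPM in CTR and at 419, 401, 437 and 415 CPM in CAC, and 3 of the 4 CAC libraries lay inside the CTR range. Its log2 fold change was -0.06 (standard error 0.09, 95% interval -0.24 to 0.13).

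The balance of the carboxylases was read within each library, which needs no scaling between libraries. The log2 ratio of Acacb to Acaca counts, with 0.5 added to each, averaged -2.67 ± 0.10 across CTR and -2.77 ± 0.23 across CAC (SD, n = 4), a difference of -0.10 (two-sided exact permutation test over 70 assignments, p = 0.514, adjusted p = 0.514 over 2 ratios). The smallest p that this test can give is 0.0286. CAC replicate 2, which had the highest Acaca, had the lowest ratio of all libraries, and without it the difference was 0.0011.

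Fatty acid synthase (Fasn, ENSMUSG00000025153.10, chr11:120805846-120824547, minus strand), whose promoter with its 3 CCAAT matches is printed above, was read by 44044 to 108275 counts per library. In CTR its level was 22162, 23006, 25207 and 23873 CPM in replicates 1 to 4. In CAC it was 25039, 23422, 23538 and 22779 CPM, and all 4 libraries lay inside the CTR range. The means were 23562 ± 1300 CPM and 23695 ± 957 CPM (SD, n = 4). The fitted log2 fold change was 0.01 (standard error 0.09, edgeR adjusted p = 0.982), and its 95% interval corresponds to a change of between -11.2% and 13.9%. Fasn was the only one of the 10 genes with every CAC library inside the CTR range.

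**Figure D2:**
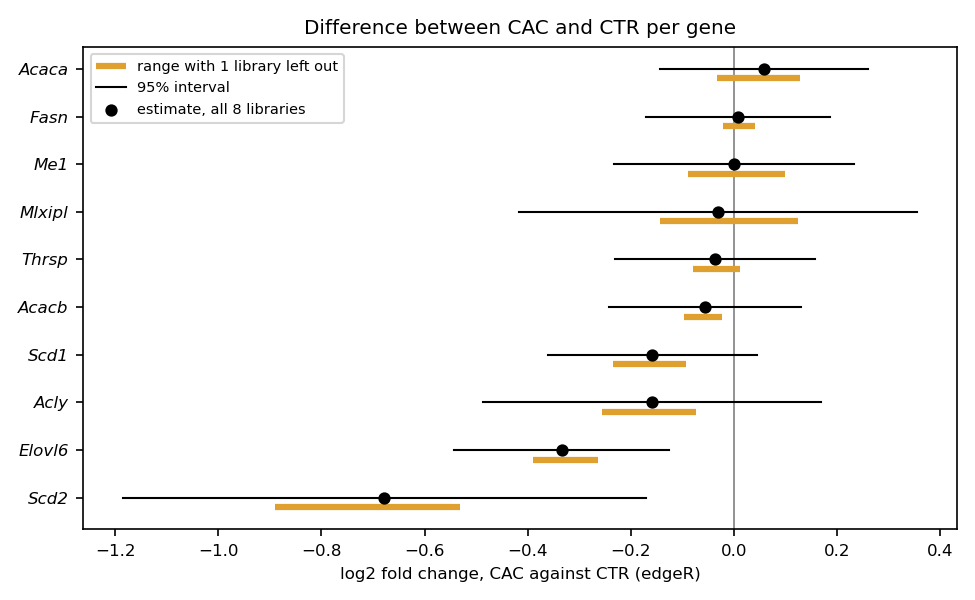
Log2 fold change of CAC against CTR for each lipogenic gene from edgeR (x axis), with the 95% interval as a thin line and the range over the 8 fits that each left out 1 library as a thick line. The intervals of Elovl6 and Scd2 lie below 0, and those of the other genes include 0.

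Elovl6 (ENSMUSG00000041220.11, chr3:129532355-129638495, plus strand), the elongase that turns palmitate into stearate, had the smallest p of the 10 genes. Its level was 476, 454, 385 and 428 CPM in CTR replicates 1 to 4, and 298, 341, 363 and 379 CPM in CAC replicates 1 to 4. Every CAC library lay below every CTR library, although CAC replicate 4 (379 CPM) lay close to CTR replicate 3 (385 CPM). Groups that do not overlap, with CAC lower, were found for 3.40% of all genes tested and for 1 of these 10. The means were 436 ± 39.4 CPM in CTR and 346 ± 35.1 CPM in CAC (mean ± SD, n = 4), and the estimated log2 fold change was -0.33 (standard error 0.10, 95% interval -0.54 to -0.13). The p was 0.0032 and the adjusted p 0.120 in edgeR's test, which ranked Elovl6 at 262 of 9876 genes by p. The adjusted p was 0.142 in DESeq2 and 0.140 in limma-voom. Without the filter on low counts edgeR's adjusted p was 0.034. Leaving out single libraries gave log2 fold changes of -0.39 to -0.26 and adjusted p-values of 0.0859 to 0.350.

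The desaturases Scd1 (ENSMUSG00000037071.4, chr19:44394455-44407879, minus strand) and Scd2 (ENSMUSG00000025203.7, chr19:44293674-44306864, plus strand) lie in one gene cluster and serve the same reaction, the placing of the first double bond into stearate and palmitate. Scd1 was measured at 9083, 7848, 9800 and 10337 CPM in CTR and at 8486, 8897, 7590 and 8243 CPM in CAC. All 4 CAC libraries lay below the CTR median, but 3 of them were inside the CTR range, which CTR replicate 2 widened at its lower end. The means were 9267 ± 1077 CPM and 8304 ± 547 CPM (SD, n = 4), and the estimated log2 fold change stood at -0.16 (standard error 0.10, 95% interval -0.36 to 0.04, edgeR adjusted p = 0.527).

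Scd2 showed the lowest estimate of the 10 genes. Its level was 100, 113, 83.0 and 66.4 CPM in CTR replicates 1 to 4, and 58.4, 81.9, 48.6 and 40.4 CPM in CAC replicates 1 to 4. In CAC, 3 libraries lay below all of CTR, while CAC replicate 2 lay above CTR replicate 4 and just below CTR replicate 3. The means were 90.6 ± 20.3 CPM and 57.3 ± 17.9 CPM (SD, n = 4). The estimated log2 fold change of Scd2 was -0.68 (standard error 0.23), and the 95% interval corresponds to a change of between -56.0% and -11.2%. The p was 0.0139 and the adjusted p 0.242 in edgeR's test, beside an adjusted p of 0.0707 in DESeq2 and 0.120 in limma-voom. Leaving out single libraries moved edgeR's log2 fold change between -0.89, without CAC replicate 2 (adjusted p = 0.0331), and -0.53, without CAC replicate 4. The adjusted p of these fits went up to 0.438. Without the filter on low counts edgeR's adjusted p was 2.1e-05, and with the replicate number as a block it was 0.0053. Scd2 rests on 108 to 424 counts per library and Scd1 on 15698 to 46882. Fractions of reads, that is counts that are not whole, stand on each of the desaturases in 5 of the 8 libraries, and their origin was not tested.

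Set against Scd1 in the same library, Scd2 counts were 1.09%, 1.42%, 0.840% and 0.638% in CTR replicates 1 to 4. In CAC they were 0.683%, 0.912%, 0.637% and 0.488%. The groups overlapped, since CTR replicate 4 and CAC replicate 3 had almost the same share. The log2 ratio averaged -6.69 ± 0.50 across CTR and -7.22 ± 0.37 across CAC (SD, n = 4), a difference of -0.53 (two-sided exact permutation test, p = 0.171, adjusted p = 0.343 over 2 ratios). Leaving out single libraries gave differences of -0.72 to -0.33. The paralogues Scd3 and Scd4, at no more than 8 and 5 counts in any library, did not pass the filter.

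Thrsp and Mlxipl are the regulators among the 10 genes. Thrsp (ENSMUSG00000035686.9, chr7:97412938-97417730, minus strand), a small protein that follows lipogenic state closely and promotes the activity of the pathway, was measured at 5870, 5726, 5877 and 5390 CPM in CTR. In CAC it was 6098, 6072, 4975 and 5147 CPM. As with Acaca, the CAC libraries lay on both sides of CTR, replicates 1 and 2 above every CTR library and replicates 3 and 4 below. The log2 fold change was -0.04 (standard error 0.09, 95% interval -0.23 to 0.16, edgeR adjusted p = 0.918). Mlxipl (ENSMUSG00000005373.14, chr5:135089890-135138382, plus strand), the gene of ChREBP, was measured at 148, 146, 130 and 97.5 CPM in CTR and at 158, 124, 142 and 87.2 CPM in CAC. Replicate 4 was the lowest library in each group, and the rest of both groups shared one range. Its log2 fold change was -0.03 (standard error 0.18), and the 95% interval of -0.42 to 0.36 was among the wider of the 10. The counts join all transcripts of a gene, so the transcripts that start at the upstream and at the downstream window of Mlxipl were not separated.

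The libraries were not alike in how the 10 genes ranked within them. CAC replicate 4 held the lowest level of 4 genes (Acaca, Acly, Scd2 and Mlxipl) and the highest of none. CAC replicate 3 was lowest for Scd1 and Thrsp and highest for Me1, while CAC replicate 1 was lowest for Elovl6 and Me1 and highest for Thrsp and Mlxipl. No library was the lowest throughout. Leaving out each library in turn moved the median log2 fold change of the 10 genes between -0.11 and -0.02.

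The wider pathway was followed through 6 lists with 79 genes, of which 78 were in the table and 64 were tested. None of the 64 passed an adjusted p of 0.05 in edgeR's test, beside 0.932% of all genes. With an unadjusted p below 0.05, 10 (15.6%) were lower and 1 (1.56%) was higher in CAC, beside 5.93% and 7.01% of all genes. DESeq2 gave 1 of the 64 genes an adjusted p below 0.05, Mid1ip1, beside 1.17% of all genes. Estimates were below 0 for 41 of the 64 genes, 64.1% against 50.0% of all genes, and the median log2 difference was -0.05.

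**Figure D3:**
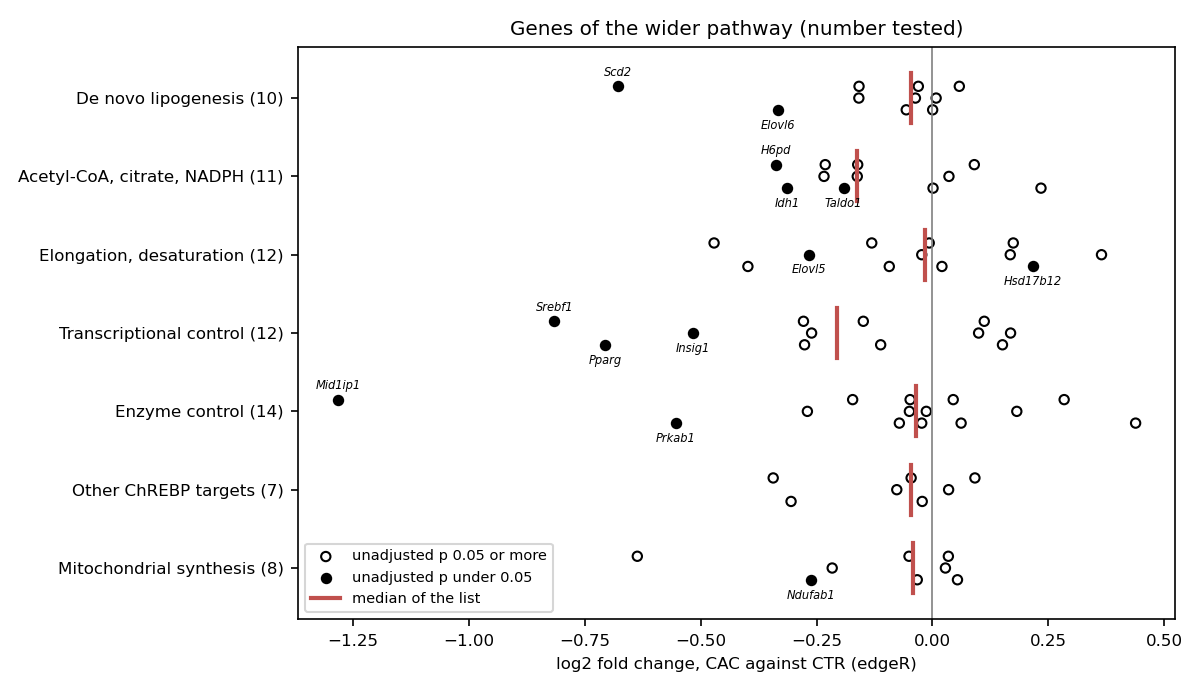
Log2 fold change of CAC against CTR (x axis) for every tested gene of the 10 lipogenic genes and of the 6 lists of the wider pathway, 1 point per gene, with the median of a list as a vertical bar. Filled points are named and have an unadjusted p below 0.05 in edgeR's test, and they lie to the left of 0 for all genes except Hsd17b12.

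Supply of acetyl-CoA, citrate and NADPH was tested in 11 genes, of which 7 had estimates below 0, against 50.0% of all genes, and 3 were lower with an unadjusted p below 0.05, against 5.93% of all genes. The median log2 fold change of the list was -0.16. The citrate carrier Slc25a1, which brings citrate out of mitochondria for Acly, had levels of 685 to 889 CPM in CTR and 722 to 863 CPM in CAC, and its log2 difference was 0.04 (95% interval -0.17 to 0.24). Idh1, the cytosolic isocitrate dehydrogenase, had an estimated log2 difference of -0.31 (standard error 0.13, edgeR adjusted p = 0.282), with 3 of 4 CAC libraries below all of CTR. H6pd, which makes NADPH in the endoplasmic reticulum, had an estimated log2 difference of -0.34 (standard error 0.14, edgeR adjusted p = 0.312). Taldo1, a transaldolase of the pentose phosphate pathway, was named after its values were seen. Its groups did not overlap, at 731 to 790 CPM in CTR and 610 to 713 CPM in CAC, as for 3.40% of all genes with CAC lower. Its log2 fold change was -0.19 (edgeR adjusted p = 0.363).

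Among the other elongases, desaturases and enzymes of the elongation cycle, 12 of 17 genes were tested, 7 with estimates below 0 and a median log2 fold change of -0.01. Elovl3, an elongase that is characteristic of BAT and cold exposure, was measured at 74.7 to 92.2 CPM in CTR and 57.9 to 100 CPM in CAC, with CAC replicate 4 the lowest and a log2 fold change of 0.02. Elovl5, which acts on polyunsaturated fatty acids, had an estimated log2 difference of -0.27 (standard error 0.12, edgeR adjusted p = 0.323). Hsd17b12, the ketoreductase of the elongation cycle, was the 1 gene of the list with an unadjusted p below 0.05 and an estimate above 0, with 332 to 375 CPM in CTR and 368 to 481 CPM in CAC. Its log2 difference was 0.22 (standard error 0.10, edgeR adjusted p = 0.356), and leaving out single libraries gave 0.14 to 0.27. The elongase Elovl6 and this ketoreductase, which work in one cycle, had estimates on opposite sides of 0.

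Transcriptional control was tested in 12 of 15 genes, and the median log2 difference was -0.20, with 8 estimates below 0. Srebf1, the gene of SREBP1, was measured at 28.1, 31.4, 19.5 and 11.5 CPM in CTR replicates 1 to 4 and at 11.9, 7.44, 16.4 and 13.2 CPM in CAC. CTR replicate 4 was as low as the CAC libraries, of which 3 lay inside the CTR range. The log2 fold change was -0.82 (standard error 0.33, 95% interval -1.55 to -0.08, edgeR adjusted p = 0.326), and without CTR replicate 4 it was -1.06 with an adjusted p of 0.0210. Without CTR replicate 2 it was -0.59, and edgeR's adjusted p went up to 0.547 over the fits without 1 library. Fractions of reads stand on Srebf1 in 7 of the 8 libraries. Insig1, which holds SREBP precursors in the endoplasmic reticulum and is itself an SREBP target, was measured at 121, 122, 102 and 86.7 CPM in CTR and 74.6, 70.2, 104 and 50.5 CPM in CAC. Its log2 fold change was -0.52 (standard error 0.19, edgeR adjusted p = 0.271), and without CAC replicate 3, the library that overlapped CTR, it was -0.74 with an adjusted p of 0.0356. Without CAC replicate 4 it was -0.36, and edgeR's adjusted p went up to 0.516 over the fits without 1 library.

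Pparg, the master regulator of adipocyte differentiation, was measured at 57.9, 50.1, 27.4 and 29.3 CPM in CTR and at 20.001, 31.9, 24.03 and 25.1 CPM in CAC. Replicates 1 and 2 of CTR stood apart from the other 6 libraries, as they did for Srebf1. For Pparg the log2 fold change came to -0.71 (standard error 0.25, edgeR adjusted p = 0.261). Nr1h3, the gene of the liver X receptor alpha, which activates Srebf1, had its groups apart in the other direction, at 48.9 to 51.7 CPM in CTR and 53.2 to 60.5 CPM in CAC. Groups that do not overlap in either direction were found for 7.04% of all genes. Its log2 fold change was 0.17 (standard error 0.11, edgeR adjusted p = 0.550). Mlx, the binding partner of ChREBP, had 10.1 to 16.2 CPM in CTR and 8.51 to 12.0 CPM in CAC, and a log2 difference of -0.28 (95% interval -0.72 to 0.17). Usf1 was at or below 2 counts in every library and was not tested.

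**Figure D4:**
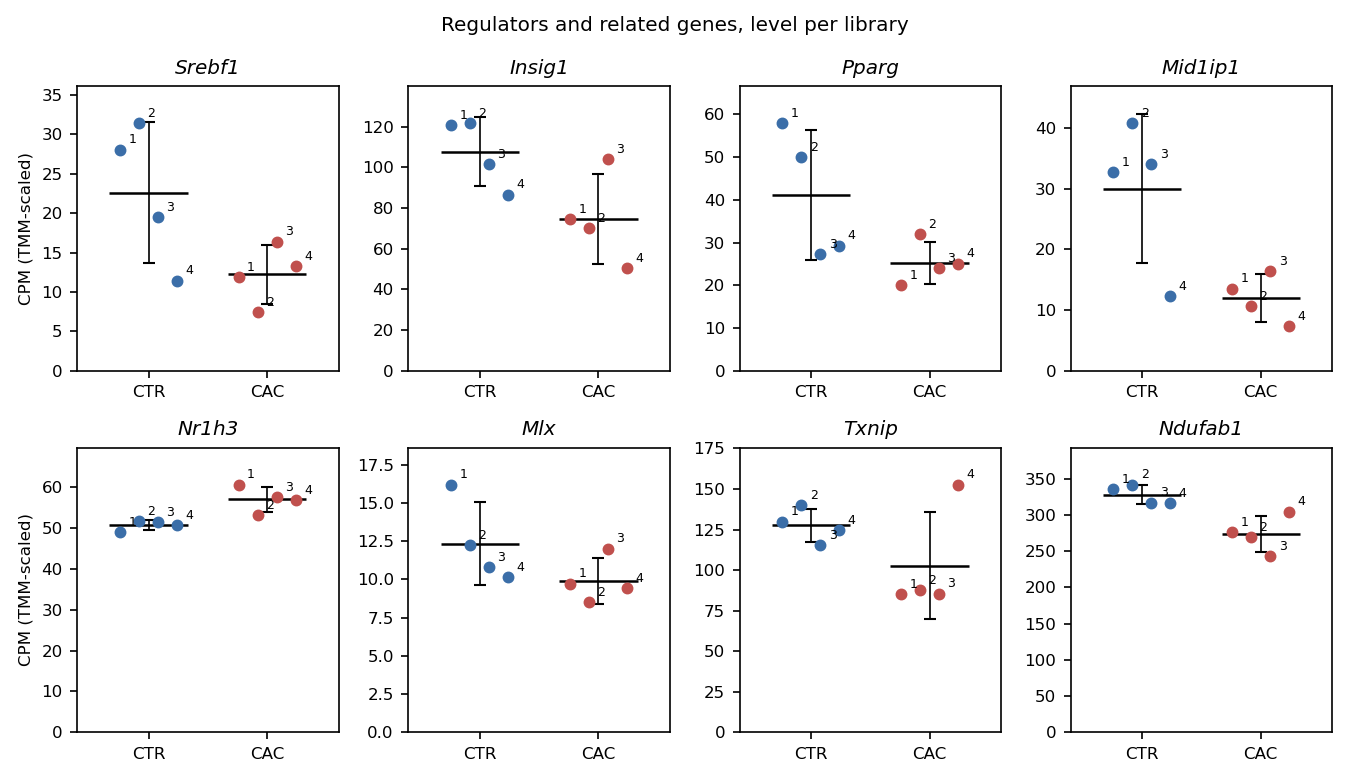
Level in CPM (y axis, linear from 0) of 8 genes of the wider pathway in the 4 CTR and 4 CAC libraries, each point a library with its replicate number, with the mean as a bar and the SD as a whisker. CTR replicate 4 sits among the CAC libraries for Srebf1 and Mid1ip1, and CAC replicate 4 sits above all other libraries for Txnip.

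Control of the enzymes and of malonyl-CoA was tested in 14 of 15 genes, and the median log2 difference was -0.04. Mid1ip1, the paralogue of Thrsp that promotes the polymerisation of acetyl-CoA carboxylase, was measured at 32.7, 40.7, 34.0 and 12.3 CPM in CTR replicates 1 to 4 and at 13.5, 10.6, 16.4 and 7.32 CPM in CAC. All CAC libraries lay far below CTR replicates 1 to 3, and CTR replicate 4 lay among them. For Mid1ip1 the log2 fold change came to -1.28 (standard error 0.43, edgeR adjusted p = 0.265). DESeq2 gave an adjusted p of 0.0074, and without CTR replicate 4 edgeR gave a log2 fold change of -1.57 with an adjusted p of 4.6e-04. Over all alternatives its adjusted p ranged from 4.6e-04 to 0.453. The estimate of its paralogue Thrsp was -0.04, and the difference between the paralogues was not tested. Prkab1, a regulatory subunit of AMP-activated protein kinase, which inhibits the carboxylases, had an estimated log2 difference of -0.55 (standard error 0.24, edgeR adjusted p = 0.332) at 6.38 to 18.9 CPM. Leaving out single libraries moved it between -0.88, without CAC replicate 3, and -0.42, without CTR replicate 2.

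Other ChREBP targets were tested in 7 of 10 genes, with none at an unadjusted p below 0.05 in edgeR's test and a median log2 fold change of -0.05. Txnip, an arrestin-like protein that limits glucose uptake, was measured at 130, 140, 115 and 125 CPM in CTR and at 85.4, 87.7, 85.6 and 153 CPM in CAC. In CAC, 3 libraries lay close together below all of CTR and replicate 4 lay above all of CTR. The log2 fold change was -0.31 (standard error 0.17, edgeR adjusted p = 0.491), and without CAC replicate 4 it was -0.56 with an adjusted p of 0.0225. Pnpla3 had a log2 fold change of -0.34 at 3.81 to 11.5 CPM, and -0.072 without CAC replicate 3. Pklr was at 0 in all libraries.

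Mitochondrial fatty acid synthesis, a separate bacterial-type pathway that makes the precursor of lipoate, was tested in 8 of 10 genes, and the median log2 difference was -0.04. Ndufab1, its acyl carrier protein and a subunit of respiratory complex I, had its groups apart, at 336, 342, 317 and 316 CPM in CTR and 276, 269, 244 and 305 CPM in CAC. Such groups, apart with CAC lower, were found for 3.40% of all genes tested. The estimate for Ndufab1 was a log2 of -0.26 (standard error 0.09, edgeR adjusted p = 0.227). As for Srebf1, fractions of reads stand on Ndufab1 in 7 libraries. Oxsm, the ketoacyl synthase of that pathway, had an estimated log2 difference of -0.64 (standard error 0.31, edgeR adjusted p = 0.398) at 2.93 to 8.71 CPM.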

How the data were processed

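Single-end digital mRNA libraries of BAT, 4 from CTR and 4 from CAC, were sequenced. Per the labels and the methods, the authors checked reads with FastQC 0.11.9, aligned them to mm10 with HISAT2 2.2.1 and obtained gene counts from featureCounts, which also counted multi-mapping reads. The strand setting of the count is not given in the sources used here. The deposited table of 56953 genes holds expected counts, with 25.1% to 28.4% of the nonzero values of a library not whole. Fractions stand on 9 of the 10 lipogenic genes (not Acacb), and 7 overlap another annotated gene (not Fasn, Scd1 and Thrsp). The deposited normalized table was not used here.

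After rounding, edgeR 4.0.16 (R 4.3.3) compared CAC with CTR by its robust quasi-likelihood test, without covariates, after filterByExpr and TMM. Benjamini-Hochberg adjustment ran over 9876 genes, with a threshold of 0.05. A count of 0 allows up to 3 counts, and this limit covers counting error only. Relative to the library total without TMM scaling, unlike the other CPM values, the limit is 0.62 to 1.65 CPM by library. The scripts were tested on simulated data, with changes placed in genes drawn from all those tested. There edgeR called 73 of 99 genes with a log2 change of 1 in size and 17 of 97 with 0.5. Of 9301 genes without a change it called 8. Ratios used counts plus 0.5 and exact permutation tests. No 2 libraries held the same values. Coordinates are those of GENCODE M21 (GRCm38), matched by Ensembl ID without version, and promoter windows are those of RefSeq. Hsd17b8 was not matched by symbol.

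The 10 genes and the lists of the wider pathway were chosen with earlier results of these data known. Named are all 10 genes, in each list the genes past the threshold or otherwise the 2 with the smallest p, and always Srebf1, Nr1h3, Mlx, Pparg, Slc25a1, Elovl3 and Mid1ip1. Markers are given by their summed level, and single markers and Taldo1 were named after their values were seen. Alternatives were DESeq2 1.42.0, limma-voom (limma 3.58.1), RLE, library size and upper quartile scaling, no mitochondrially encoded genes, no filter, at least 10 counts in every library, counts cut to whole numbers, the replicate number as a block, other additions to the ratios and each library left out. Python 3.11.15 with numpy 2.4.6, pandas 2.3.3 and matplotlib 3.10.9 served for tables and plots.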

Additional observations from a re-analysis of the deposited data

Results flagged for a closer look

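Dixon's test found an isolated library in 3 of the 80 sets of 4 libraries checked. Chance gives about 1 in 20, that is 4. Txnip in CAC replicate 4 was 153 CPM, beside 85.4 to 87.7 CPM in the other CAC libraries. The summed epithelial markers stood at 0.220 CPM in CTR replicate 4 and at 0.532 CPM in CAC replicate 2, beside 0 in the other libraries of each group, and these sums are under the limit that a count of 0 allows.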

How the results depend on the processing

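The summed level and the median log2 fold change of the 10 genes kept their direction under every alternative run. Without the filter on low counts, 2 of the 10 genes (Scd2, Elovl6) and 4 genes of the wider pathway (Srebf1, Insig1, Pparg, Mid1ip1) passed the threshold in place of 0, while the calls over all genes went from 92 of 9876 to 351 of 23730. DESeq2 passed 1 gene of the wider pathway, Mid1ip1, beside 116 of 9876 over all genes (1.17%). Leaving out 1 library gave 0 to 1 of the 10 genes and 0 to 2 genes of the wider pathway. Over all genes these fits called from 42 of 10137 (without CTR replicate 1) to 135 of 10148 (without CTR replicate 3). Without CAC replicate 2, where Scd2 passed, 66 of 10155 genes were called. Without CTR replicate 4, where Srebf1 and Mid1ip1 passed, 113 of 10024 were called. With the replicate number as a block, 1 of the 10 genes (Scd2, adjusted p = 0.0053) and 1 of the wider pathway (Mid1ip1, adjusted p = 0.0012) passed, and the calls over all genes came to 140. The replicate block uses numbers that both groups share, and nothing in the labels says that they pair animals. Same-numbered libraries correlated at -0.022 to 0.037 over genes, and 5 of 8 were closest to their own number. Whether the numbers pair animals was not tested. Estimates near 0 changed sign. For Fasn they were -0.0041 with library size scaling, -0.014 with upper quartile scaling and -0.019 without the filter. For Me1 they were -0.0075, -0.020 and -0.024 in the same order, -0.00011 with at least 10 counts, -0.011 with the replicate block and -0.0070 in limma-voom. For Elovl3 they were -0.0024 with upper quartile scaling, -0.0084 without the filter and -0.018 in limma-voom. Leaving out 1 library gave -0.021 to 0.042 for Fasn, -0.034 to 0.13 for Acaca, -0.088 to 0.098 for Me1, -0.080 to 0.013 for Thrsp, -0.14 to 0.13 for Mlxipl, -0.016 to 0.12 for Slc25a1 and -0.059 to 0.18 for Elovl3. Without a change of sign it gave -0.26 to -0.073 for Acly, -0.097 to -0.023 for Acacb, -0.23 to -0.093 for Scd1, -0.41 to -0.13 for Mlx and -0.57 to -0.072 for Pnpla3. It gave -0.17 to 0.0011 for the ratio of Acacb to Acaca. The cause of these shifts was not tested. Genes at under 20 CPM, such as Mid1ip1 and Oxsm in CAC, rest on few counts.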
